A study of Mus musculus with 12 samples.

Results

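The regions described here lost 5-hydroxymethylcytosine (5hmC) in Tet-deficient mouse retina at places where no change of total cytosine methylation was called. They were taken from the deposited list of 592906 regions that differed between Cre- and Tet tcKO retinas by bACE-seq, and 21736 of them met the rule. A member lies on 1 of the 19 autosomes, holds at least 10 CpGs, is shorter than 5000 bp, has a mean 5hmC level from 20% to below 35% in Cre- retinas, keeps below 50% of that level in Tet tcKO retinas, and shares not even 1 bp with any of the 193836 regions listed for whole-genome bisulfite sequencing (WGBS). Members were thus selected on their measured 5hmC levels and on the lack of overlap, and these are given as a description. Regions that met every criterion except the last numbered 54213, and the 32477 of these that do overlap a WGBS region are called counterparts.

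Both assays were run on DNA of whole retinas of C57 BL/6J mice at postnatal day 21, with 3 libraries per group and assay, 12 in all. Tet tcKO retinas carried floxed Tet1, Tet2 and Tet3 deleted by the Chx10-driven Cre-GFP transgene, which acts in retinal progenitor cells and is mosaic; Cre+ animals were in-crossed to address the mosaicism. Cre- retinas were age-matched and came from breeders without the transgene. The paper reports fewer cells with rod markers, more with cone markers and a thinner retina in Tet tcKO animals at this age. Differences in cell composition and differences in marks within cells therefore cannot be told apart in these data. The lists hold 1 mean per group and region and no value per library, so no spread between libraries can be given and no difference between groups of regions was tested. All intervals below are 95% exact binomial (Clopper-Pearson) intervals that cover counting over regions only, and neighbouring regions are not independent. The lists hold no expression values, so the tissue could not be checked against marker genes.

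TET enzymes oxidise 5-methylcytosine (5mC) to 5hmC and thereby start its active removal, and 5hmC is abundant in the DNA of neurons. Bisulfite sequencing reads 5mC and 5hmC alike as protected cytosines, so WGBS gives their sum. In bACE-seq bisulfite first converts unmodified cytosines, a deaminase then converts 5mC, and bisulfite-treated 5hmC is protected, so the read-out is meant to be 5hmC. A CpG at which 5hmC is replaced by 5mC therefore loses bACE-seq signal and keeps its WGBS signal, whereas a CpG that gains net methylation rises in WGBS. The paper reports that a small part of unmodified cytosines escaped conversion in bACE-seq. No correction for this was made here, so low Tet tcKO levels and the shares of 5hmC kept can include unconverted cytosines. Any 5mC that the deaminase left unconverted would be read as 5hmC too, and it was not corrected for either.

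Windows of 4 members are printed below from the RefSeq assembly of GRCm38 (mm10), plus strand, in lower case with each CpG in capitals. For members longer than 300 bp the window is the stretch of 300 bases with the most CpGs, and shorter members are shown whole with the last CpG completed. The first, in an intron of Mbnl1 (chr3:60567216-60567515), had one of the 5 largest falls. The second, in an intron of Nfu1 (chr6:87026050-87026113), was the densest in CpGs, and the last pair had the largest fall within Ntm (chr9:29144314-29144613) and Thrb (chr14:17751359-17751658), also in introns. These windows range from a simple repeat to mostly unmasked sequence with scattered CpGs.
Mbnl1: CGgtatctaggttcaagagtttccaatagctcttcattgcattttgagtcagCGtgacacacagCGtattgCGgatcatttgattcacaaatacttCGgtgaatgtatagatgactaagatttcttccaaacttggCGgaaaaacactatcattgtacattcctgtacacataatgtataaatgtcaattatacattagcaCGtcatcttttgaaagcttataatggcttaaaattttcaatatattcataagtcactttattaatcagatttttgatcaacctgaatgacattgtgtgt
Nfu1: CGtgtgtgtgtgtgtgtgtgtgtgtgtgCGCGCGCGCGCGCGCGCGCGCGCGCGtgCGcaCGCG
Ntm: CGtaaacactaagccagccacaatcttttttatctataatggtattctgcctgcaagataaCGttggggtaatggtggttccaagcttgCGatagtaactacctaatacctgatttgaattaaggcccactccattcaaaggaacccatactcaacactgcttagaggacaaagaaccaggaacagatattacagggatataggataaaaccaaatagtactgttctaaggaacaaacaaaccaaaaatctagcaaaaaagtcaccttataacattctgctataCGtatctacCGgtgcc
Thrb: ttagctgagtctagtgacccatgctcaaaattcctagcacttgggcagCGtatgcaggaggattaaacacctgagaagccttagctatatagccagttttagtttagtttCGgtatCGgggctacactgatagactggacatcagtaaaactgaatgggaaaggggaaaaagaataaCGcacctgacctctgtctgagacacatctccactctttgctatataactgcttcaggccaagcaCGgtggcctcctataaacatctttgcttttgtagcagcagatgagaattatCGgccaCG

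The member of Mbnl1, a splicing regulator, went from a 5hmC level of 34.99% in Cre- to 3.10% in Tet tcKO retinas over 10 CpGs. Of its window 5% is repeat-masked, and of the whole member 30.8%. The 63-bp member of Nfu1, a factor for iron-sulfur clusters, went from 25.4% to 1.72% over 17 CpGs in an alternating CG tract. The members of Ntm, a cell adhesion protein of neurons, and Thrb, the thyroid hormone receptor that specifies M cones, went from 32.5% to 6.58% over 12 CpGs and from 31.3% to 8.77% over 17 CpGs. The nearest WGBS region was 577 bp away for Nfu1, 439 bp for Mbnl1, 5836 bp for Ntm and 6781 bp for Thrb.

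Across the whole bACE-seq list, 75.8% of regions overlapped no WGBS region. Among the eligible regions, which are longer and richer in 5hmC, the share was 40.1%, and this is the background against which the member shares below are read. It depends on how overlap is defined: it was 85.1% when a WGBS region had to cover at least 50% of the bACE-seq region, 73.9% when only WGBS regions with means at least 20 points apart counted, 67.5% when only those with at least 10 CpGs counted, and 21.0% when none was allowed within 2000 bp. Each criterion had regions close to it. The nearest values inside and outside were 10 and 9 CpGs, 4996 and 5002 bp, Cre- levels of 20.0004% and 19.9998% at the lower limit and of 34.992% and 35.010% at the upper limit, and 49.87% and 50.11% of 5hmC kept. Lack of 10 CpGs alone kept out 38154 regions without WGBS overlap, a Cre- level under 20% alone kept out 132798, and the limit on 5hmC kept 85. The closest member lay 4 bp from a WGBS region.

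The members together cover 32.0 Mb and 373926 CpGs, 1.83% of the autosomal CpGs of the reference. Weighted by CpGs, 5hmC stood at 23.9% in Cre- and fell to 5.76% in Tet tcKO retinas, so 24.1% was kept. In the counterparts, which cover 61.9 Mb, the levels were 24.6% and 6.24%, and 25.4% was kept. Per region, the median Cre- level of members was 23.0%, with 10th and 90th percentiles of 20.5% and 29.0%, and the median Tet tcKO level was 5.59%, with percentiles of 3.86% and 7.84%. The median share of 5hmC kept was 23.7% in members and 25.02% in counterparts. Both groups were selected on these levels, and the difference between them was not tested.

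**Figure D1:**
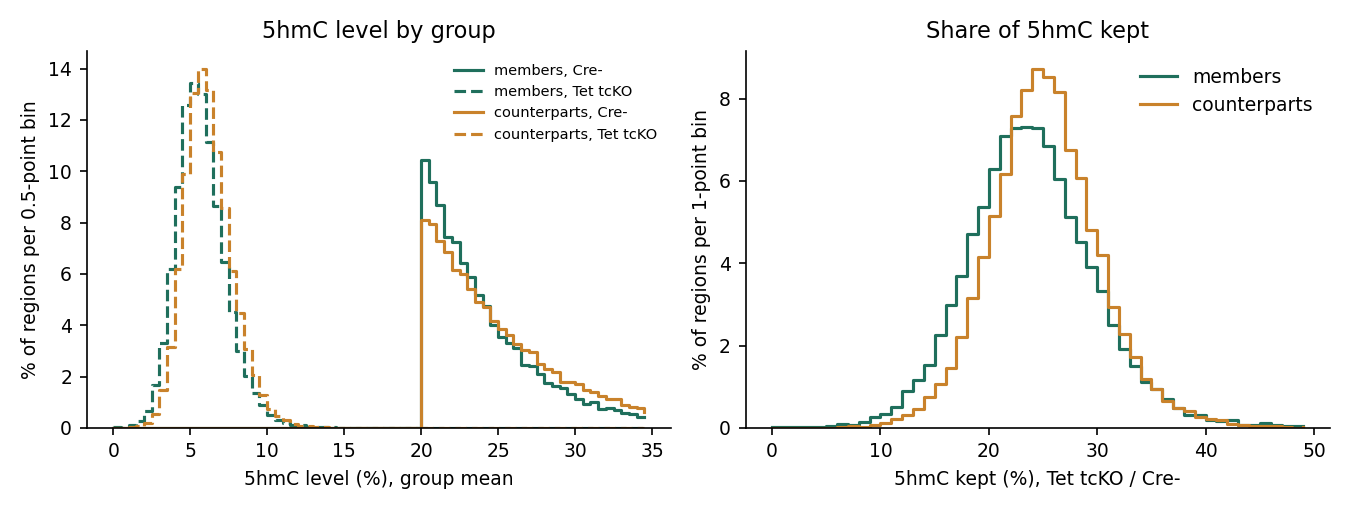
Left, distribution of the mean 5hmC level per region (%) in Cre- (solid) and Tet tcKO (dashed) retinas for 21736 members (green) and 32477 counterparts (orange), as percent of regions per bin; the sharp edge at 20% is the selection limit. Right, share of the Cre- level kept in Tet tcKO retinas (%). Both groups lie mostly between 10% and 40%, and the medians are 23.7% in members and 25.02% in counterparts.

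The share kept hardly moved with the starting level. For Cre- levels from 20% to below 25%, 25% to below 30% and 30% to below 35%, the median share kept by members was 23.7%, 23.7% and 23.6%, and the corresponding Tet tcKO medians were 5.22%, 6.39% and 7.56%. Members made up 43.1%, 36.1% and 30.4% of the eligible regions of these bands. Length moved with the level: the median length of members was 1212, 1352 and 1470 bp in these bands, and its part in the result was not tested. Between 20% and 30% of 5hmC was kept by 61.7% of members and 70.2% of counterparts. Shares of 10% to below 20% were found in 23.5% of members against 13.9% of counterparts. Below 10% lay 143 members (0.658%) and 56 counterparts (0.172%).

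Members were shorter than their counterparts and longer than the list as a whole. Their median length was 1259 bp and their median CpG number 14, against 1641 bp and 21 CpGs in the counterparts and 524 bp and 8 CpGs in all autosomal regions. Against the counterparts they also held fewer CpGs per 100 bp (median 1.24 against 1.39), and their GC content was 44.8% against 46.1%. By density, members made up 53.0% of eligible regions below 1 CpG per 100 bp and 32.0% from 1.5 to below 2. At 3 or more CpGs per 100 bp they made up 48.1%. The member share fell with length, from 57.8% (55.5 to 60.1) of eligible regions shorter than 500 bp to 15.2% (13.7 to 16.7) of those from 4000 to below 5000 bp, and it fell in promoters, gene bodies and intergenic DNA alike. With the number of CpGs it fell from 57.2% at 10 to 14 CpGs to 6.69% (5.82 to 7.64) at 50 or more. A longer region has more bases in which a WGBS region can fall, and the part of this in the result was not tested.

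Members were also richer in repeat-masked sequence than their counterparts. The median share of masked bases, as lower-case letters of the reference, was 21.4% in members and 17.0% in counterparts. The member share rose from 35.1% (34.2 to 35.9) of eligible regions with under 10% masked bases to 73.8% (69.5 to 77.8) of those with 70% or more. The rise was seen within lengths of 500 to below 1000 bp (43.3% to 77.6%) and of 1000 to below 2000 bp (33.8% to 66.2%). Read coverage is not part of the lists, so whether fewer reads were aligned in masked sequence was not tested. Members more than 50% masked numbered 1735, against 882 counterparts, and they kept a median of 22.9% of their 5hmC, close to the value over all members.

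**Figure D2:**
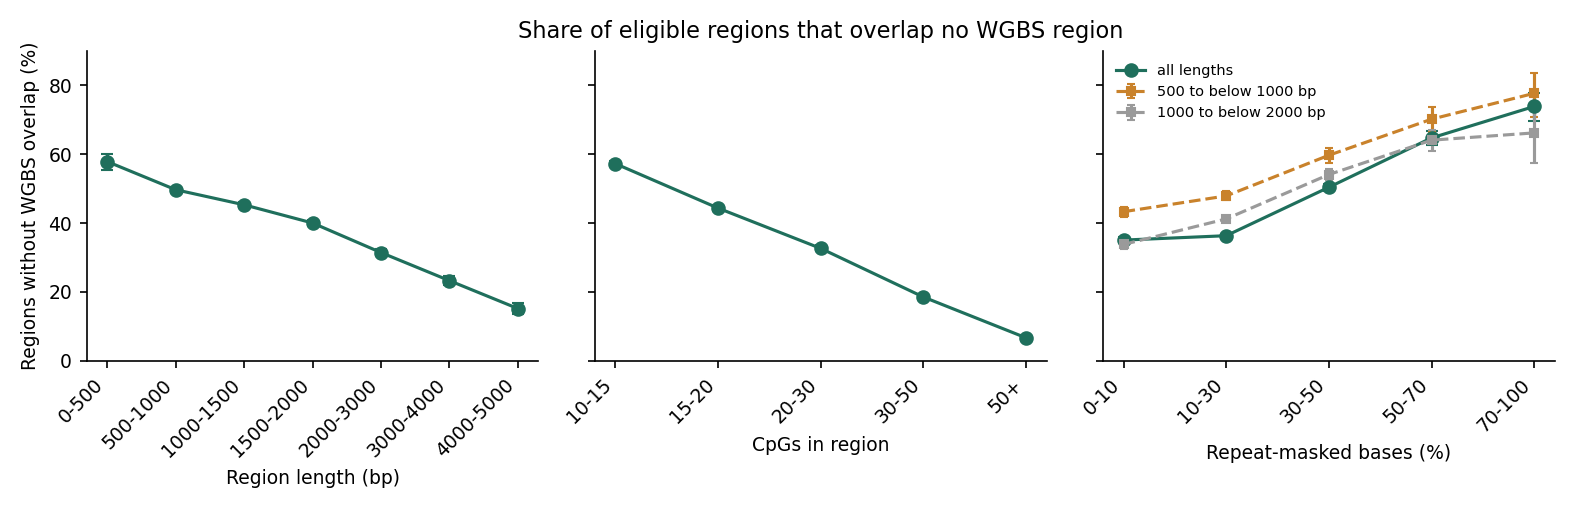
Members as percent of eligible regions (points, with 95% exact binomial intervals) by region length in bp, number of CpGs and share of repeat-masked bases; each bin includes its lower and excludes its upper limit. The share drops from 57.8% to 15.2% with length and from 57.2% to 6.69% with CpG number, and climbs from 35.1% to 73.8% with masked bases, also within 2 length ranges.

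The members with the largest falls included that of Mbnl1 and members in Aak1, a kinase of clathrin-mediated endocytosis, Cntnap5c, a neurexin family gene, and Megf9, a transmembrane protein. The levels of these 4 fell by 30.7 to 31.9 points from between 33.6% and 34.99%. The 90-bp member of Cntnap5c (chr17:58201524-58201613) is wholly masked and was also the second farthest from any WGBS region, at 150182 bp. All 5 members densest in CpGs were shorter than 70 bp and had 18.5 to 27.0 CpGs per 100 bp. Of these, 4 were wholly masked, and the share of 5hmC kept ranged from 2.39% to 41.2%. The 66 members with 5 or more CpGs per 100 bp kept a median of 34.1%, above the median of all members. The 22 counterparts of that density kept a similar median of 33.7%.

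Members with the most CpGs were of another kind. The 5 leading ones held 82 to 89 CpGs in 3499 to 4952 bp. They lay over an exon of Rab12, a small GTPase (chr17:66497935-66501983), within Rcan1, an inhibitor of calcineurin, over the start site of the antisense gene Gm46555 (chr16:92454350-92457848), over exons of Dlg4, which encodes the postsynaptic scaffold PSD-95 (chr11:70036285-70040883), over an exon of Abhd2 (chr7:79289966-79294917), and in intergenic DNA 20673 bp from Jarid2, a cofactor of Polycomb repressive complex 2 (chr13:44703868-44708801). Their Cre- levels were 20.2% to 22.0%, close to the lower limit, and their Tet tcKO levels were 4.94% to 6.71%. The nearest WGBS regions were 308 to 3016 bp away.

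By the position of the midpoint, 71.2% (70.6 to 71.8) of members lay in gene bodies, 8.44% (8.08 to 8.82) in promoters within 2 kb of an annotated start site, and 20.3% (19.8 to 20.9) were intergenic. The counterparts gave 70.3%, 9.32% and 20.4%. All autosomal bACE-seq regions gave 56.0%, 7.56% and 36.4%. First introns held 28.4% of members and 30.9% of counterparts, against 15.7% of all regions, and coding exons held 1.80%, 2.20% and 3.53%. Members thus differed in position from the whole list and little from their counterparts. Members made up 37.7% of the eligible regions of promoters, 40.4% of those of gene bodies and 40.03% of intergenic ones, and across 10 equal stretches of genes of at least 10 kb the share stayed between 37.6% and 42.3%. It was lowest within 500 bp of a start site, at 33.0% (29.6 to 36.6).

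Over all annotated start sites, promoters held 8.44% of members and 9.32% of counterparts. For start sites of coding genes alone, counterparts were not counted. Of the 21736 members, 1437 lay near such a site, and without a background this count cannot be read as high or low. The 5 with the most CpGs covered the start sites of Slc5a2, the renal glucose transporter SGLT2, Slc25a34, a mitochondrial carrier, Padi6, a peptidyl arginine deiminase of oocytes, C530008M17Rik, and Heg1, a receptor of vascular development. They held 58 to 80 CpGs. At Slc5a2 (chr7:128265527-128269352) the levels were 24.8% and 7.35% in Cre- and Tet tcKO retinas, and at Heg1 (chr16:33753093-33756862) they were 20.8% and 5.16%.

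Members lay close to WGBS regions without touching them. The median distance was 2145 bp, 27.1% (26.5 to 27.7) had a WGBS region within 1 kb, 75.9% within 5 kb and 99.7% within 50 kb. For other regions without WGBS overlap that also had at least 10 CpGs and were below 5000 bp, 19.5% had one within 1 kb and 66.5% within 5 kb. The nearest WGBS region was higher in Tet tcKO retinas for 21553 members (99.2%), with median methylation of 61.9% in Cre- and 82.2% in Tet tcKO retinas over a median of 7 CpGs. Over all WGBS regions, 98.6% were higher in Tet tcKO retinas, with medians of 64.3% and 82.2%, so the neighbours of members were close to the list as a whole. The farthest member lay 177331 bp from any WGBS region, in intergenic DNA (chr6:75157023-75159195), and it went from 20.1% in Cre- to 4.57% in Tet tcKO retinas.

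**Figure D3:**
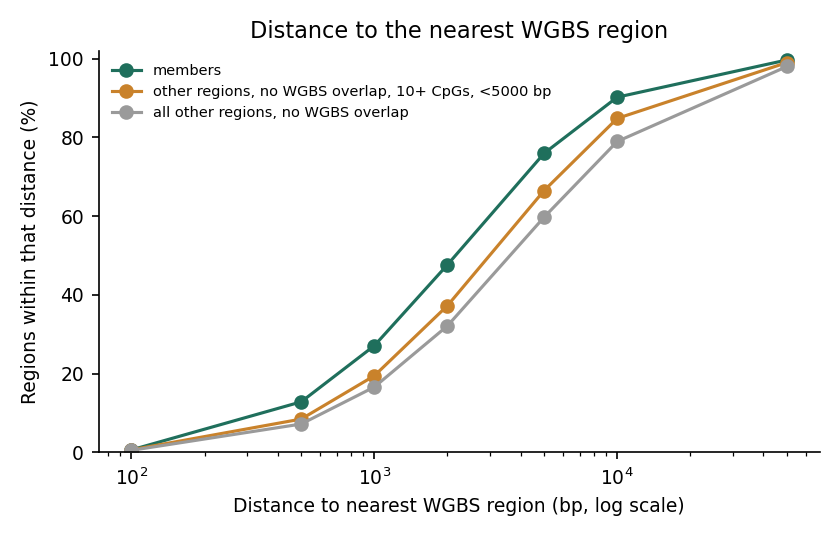
Percent of regions with a WGBS region within a given distance (bp, log scale), for members (green), other regions without WGBS overlap that have at least 10 CpGs and are below 5000 bp (orange), and all other regions without WGBS overlap (grey). Within 1 kb the values are 27.1%, 19.5% and 16.6%, and at 50 kb all are above 98%.

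The bACE-seq regions on both sides lacked WGBS overlap for 49.3% (48.7 to 50.0) of members and 32.9% (32.4 to 33.4) of counterparts, against 58.6% of all autosomal regions, and both overlapped a WGBS region for 10.7%, 22.5% and 7.57%. Taken along the eligible regions, 6700 members stood alone between counterparts, and the longest uninterrupted run held 20 members. Per window of 1 Mb the median was 8 members and the highest was 58 of 119 eligible regions, at 37 to 38 Mb of chromosome 7, where Zfp536 and Uri1 lie. The next windows were at Jarid2 and Dtnbp1 on chromosome 13, with 56 of 139, and at 33 to 34 Mb of chromosome 16, with 54 of 111, where Itgb5, Kalrn and Heg1 lie. The member shares of these windows were 48.7%, 40.3% and 48.6%, so their counts stand high largely through the number of eligible regions.

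Of 20807 autosomal protein-coding genes, 8567 held the midpoint of an eligible region in their body, 5720 that of a member, and 238 held 10 or more members. The highest counts belonged to Gm20388 (57) and Fgfr2 (54). These are annotated models of 4435 kb and 2961 kb that run over 73 and 30 other coding genes. How many of their members also lie in those genes was not counted. Gm37240 (39) likewise spans 7 other coding genes. Among the rest of the 10 leading genes, Ntm had 48 members of 118 eligible regions, the polarity scaffold Pard3 47 of 95, the phospholipid flippase Atp8a2 42 of 90, the synaptic adhesion protein Cadm2 40 of 67, the actin and phosphatase regulator Phactr1 35 of 75, the zinc finger repressor Zfp536 35 of 75 and the receptor phosphatase Ptprg 33 of 66. In Zfp536 the members covered 18.9% of the gene, more than in Ntm (10.0%) or Cadm2 (8.69%).

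Levels varied within these genes. In Ntm, Cre- levels of the members ran from 20.6% to 32.6% with a median of 24.1%, and Tet tcKO levels from 3.46% to 8.30% with a median of 6.00%. In Cadm2 the medians were 26.4% and 5.53%, and its members kept a median of 20.8%, the lowest of the 10 genes. Over its whole annotated span, Fgfr2 had the highest, at 25.8%. The Cadm2 member with the largest fall (chr16:67512280-67514191) went from 31.2% to 2.76%.

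Genes with at least 20 eligible regions numbered 332, and members made up a median of 38.0% of their eligible regions, with 10th and 90th percentiles of 18.9% and 54.98%. Among the 5 highest shares were those of Stag1, a cohesin subunit (16 of 20), Pcdh15, a protocadherin of photoreceptors and hair cells (20 of 27), Rims2, a scaffold of the synaptic active zone (16 of 22), and Acaca, acetyl-CoA carboxylase (15 of 21). At the other end, the transcription factor Casz1 had 0 of 25, for which 3 counts in place of 0 would give a share of 12%. The splicing regulator Khdrbs3 had 2 of 31, the transcriptional coregulator Zmiz1 2 of 27 and Lrrc1 2 of 21. These genes were picked as the ends of an order.

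The density of WGBS regions moved with these shares. WGBS regions covered 1.82% to 6.27% of the 5 genes with the highest member shares, and 22.5% to 68.6% of the 5 with the lowest. Over the 332 genes, the median cover was 22.2% where members made up less than 20% of eligible regions, 11.9% at 30% to below 40%, and 6.46% at 50% or more. Ntm, with 171 WGBS regions, had 9.71% of its length covered, and Casz1, with 57, had 68.6%. Since a member is by rule a region outside WGBS regions, cover and member share are not independent.

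**Figure D4:**
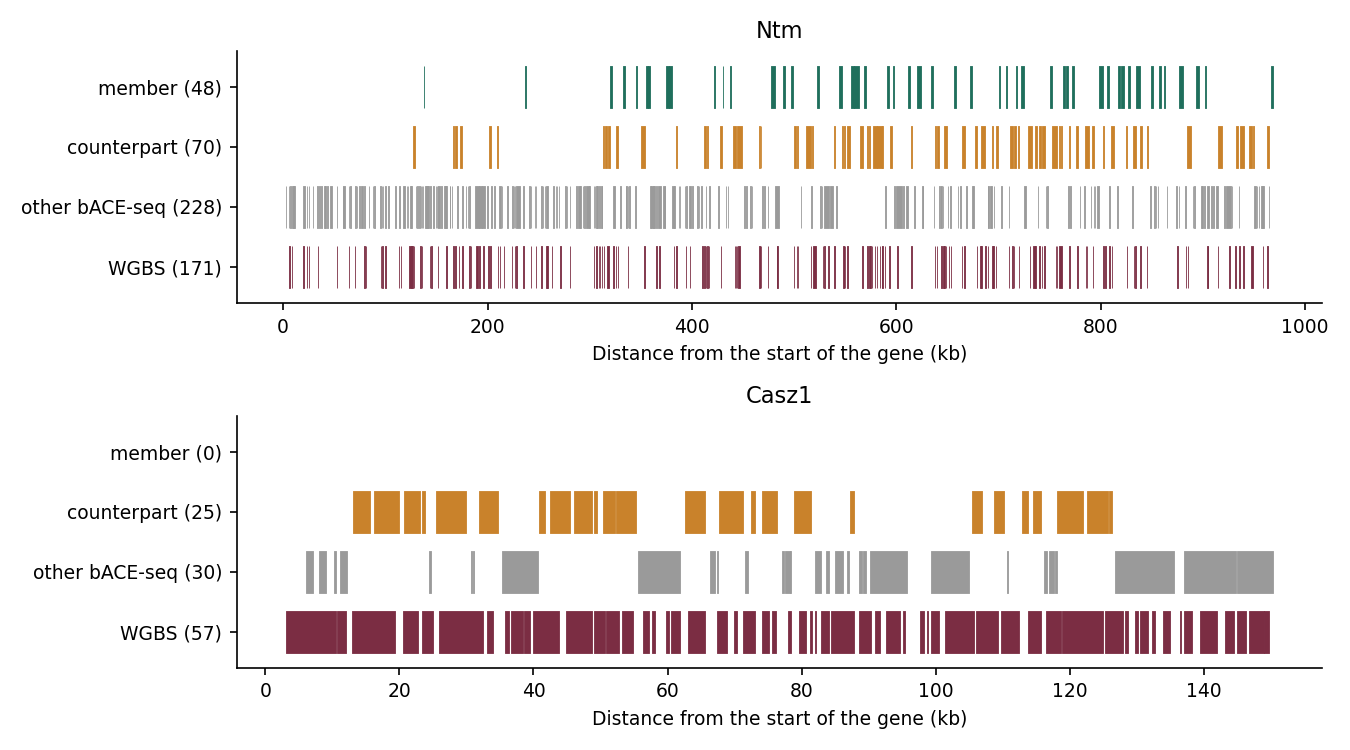
Regions along Ntm (968 kb) and Casz1 (150 kb), by distance from the start of the gene in kb in the direction of transcription: members (green), counterparts (orange), other bACE-seq regions (grey) and WGBS regions (red), with their numbers. Ntm holds 48 members and 70 counterparts, and Casz1 holds 25 counterparts and no member among WGBS regions that cover 68.6% of it.

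Member shares were also counted at the loci of genes listed under retinal cell types, each with 5 kb on both sides. The lists are not confined to 1 cell type. The rod list holds Rcvrn and Prph2, which the paper counts among transcripts of mature photoreceptors. Whether each listed gene belongs to its type alone was not checked. Over all coding genes, 17429 of 43121 eligible regions at their loci were members (40.4%). At the loci of 24 rod genes it was 25 of 140 (17.9%, 11.9 to 25.2), and at 15 cone genes 19 of 34 (55.9%, 37.9 to 72.8). Shares between these were found for 19 bipolar genes (22.2%, 13.3 to 33.6, 16 of 72), 19 amacrine genes (25%, 15.8 to 36.3, 19 of 76) and 20 Müller glia genes (27.2%, 18.4 to 37.4, 25 of 92). So it was for 9 horizontal cell genes (30.6%, 16.3 to 48.1, 11 of 36), 17 progenitor genes (34.8%, 16.4 to 57.3, 8 of 23) and 16 ganglion cell genes (37.5%, 18.8 to 59.4, 9 of 24). The intervals of the cone, horizontal cell, progenitor and ganglion cell lists include the 40.4% of all coding genes. WGBS regions covered 24.4% of the rod loci, 6.57% of the cone loci and 5.70% of the loci of all coding genes. Like the rod loci, the bipolar, amacrine, Müller glia, horizontal cell, progenitor and ganglion cell loci had more cover than all coding genes. Their member shares were lower, though 3 of these intervals include 40.4%, as given above. At the cone loci cover and share were both higher. Of the lists described below, the methylation and demethylation loci had more cover and a lower share, and the microglia loci the reverse. Both values were higher at the complex I loci and lower at the endothelial loci. Both were also lower at the glutamate and GABA receptor loci, with 2.95% covered and a share of 29.4%. The part of cover in the differences was not tested.

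Rod and cone loci also differed in length of the eligible regions, with medians of 1827 bp and 1356 bp. Below 1500 bp the member share was 26.7% (12 of 45) in rod and 55.6% (10 of 18) in cone loci, against 49.0% for all coding genes, and at 1500 bp or more it was 13.7%, 56.3% and 32.2%. For regions with 20 or more CpGs it was 13.2% (10 of 76), 25% (2 of 8) and 24.6%. Without the gene that has the most eligible regions, Pde6a for rods and Thrb for cones, the shares were 15.3% (9.48 to 22.9) and 50.0% (11 of 22, 28.2 to 71.8).

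Among rod genes, Pde6a, a catalytic subunit of the rod phosphodiesterase, held 6 members of 16 eligible regions, with Cre- levels of 20.3% to 28.4% and Tet tcKO levels of 4.33% to 8.83%. Samd7, a Polycomb-associated protein of photoreceptors, held 4 of 8, at 24.0% to 33.2% and 6.12% to 11.5%. The lipid transporter Abca4 held 3 of 15 and the retinol dehydrogenase Rdh12 3 of 4. Of the 14 rod genes without a member, 13 had eligible regions, 49 in all, which by the rule overlap a WGBS region. They include the rod transcription factors Nrl (3 eligible regions) and Nr2e3 (5), the channel subunit Cnga1 (8), the arrestin Sag (6) and the disc protein Prph2 (5), numbers too small to bound the share in any of them closely.

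At cone genes, Thrb held 8 members of 12 eligible regions, with Cre- levels of 20.3% to 31.3% and Tet tcKO levels of 2.51% to 8.77%. The opsin kinase Grk1, which was placed in the cone list, held 2 of 5. Its Cre- levels were 23.9% and 24.7% and its Tet tcKO levels 6.799% and 6.826%. The S-cone opsin Opn1sw held 2 of 4, at 20.5% and 23.7% in Cre- retinas. Of the genes with a single eligible region, Pde6h, Gnat2 and Rxrg were among those where it was a member, and in Cnga3 and Gnb3 it was not. In Pde6h, Gnat2 and Rxrg the Cre- levels were 22.5%, 22.9% and 21.3%, and the Tet tcKO levels 4.76%, 6.77% and 6.58%. With at most 12 regions per gene, no order among the cone genes can be read.

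In the bipolar, amacrine and Müller glia lists a single long gene supplied most members. Prkca, the kinase that marks rod bipolar cells, held 10 of the 16 bipolar members, followed by Nfia (4) and Irx6 (2). Meis2 held 13 of the 19 amacrine members and Meis1 4. Nfib held 15 of the 25 Müller glia members, and without it the share for Müller glia was 22.7%. Apoe, a lipid carrier of glia, had 3 eligible regions that were all members, with Tet tcKO levels of 5.38% to 7.03%, whereas Lhx2, Slc1a3 and Sox8 had 0 of 3 each, Nfix 2 of 11 and Dkk3 1 of 9. Without Meis2 the amacrine share was 12.5%, 6 of 48. Sox6 led the horizontal cell list with 5, Ebf1 the ganglion cell list with 5 and Gap43 followed with 3, and Ccnd1 led the progenitor list with 2 of its 8 members, which were spread over 7 genes.

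**Figure D5:**
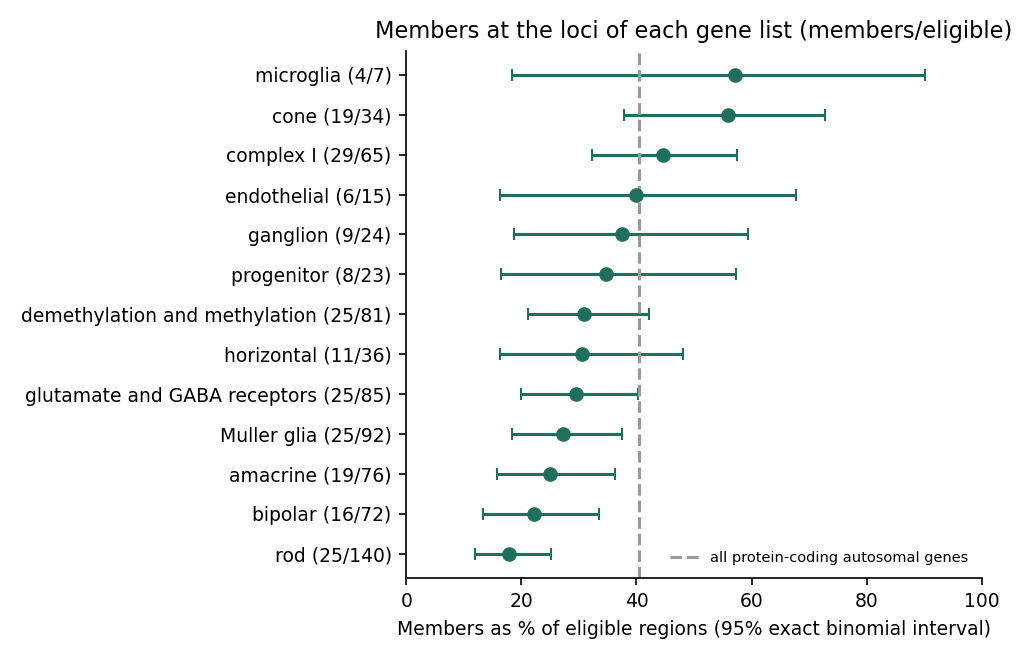
Members as percent of the eligible regions at the loci of each gene list (points, with 95% exact binomial intervals), with the numbers of members and eligible regions in brackets; the dashed line is the value over all protein-coding autosomal genes, 40.4%. Rod loci are lowest at 17.9%, cone loci are at 55.9%, and microglia, highest at 57.1%, rest on 7 regions.

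Outside the retinal cell types, mitochondrial complex I genes had 29 members of 65 eligible regions (44.6%, 32.3 to 57.5), led by Ndufs4 with 8 of 13. Glutamate and GABA receptor genes had 25 of 85 (29.4%), led by Grik3 with 7 of 23, Gabbr2 with 6 of 14 and Grik4 with 4 of 14. Genes of endothelial cells had 6 of 15 and those of microglia 4 of 7. In the list of methylation and demethylation factors the share was 30.9% (25 of 81). The de novo methyltransferase Dnmt3a held 6 of 18, the methyl-CpG binding protein Mbd2 4 of 14, Tet3 4 of 13, Tet2 4 of 9 and Tet1 1 of 7. The Tet2 members had Cre- levels of 23.0% to 34.9% and Tet tcKO levels of 5.63% to 9.92%.

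Short motifs were searched on both strands in the central 300 bp. TAATCC, the core bound by the photoreceptor factors CRX and OTX2, was found in 18.1% (17.6 to 18.6) of members, 15.1% (14.7 to 15.5) of counterparts and 14.7% of all autosomal bACE-seq regions. Counting only matches in unmasked bases, the shares were 10.3%, 10.0% and 8.97%. Members were more masked than counterparts (median 21.4% against 17.0%), so this count has fewer bases to search in them. The part of masking in the TAATCC difference was not tested. The bHLH motif CAGATG was in 23.4% of members and 25.4% of counterparts, with 23.9% of all regions. CCGCCC, bound by SP and KLF factors, was in 3.86%, 4.71% and 5.52%, and the E-box CACGTG in 4.94%, 5.27% and 5.78%. AGGTCA, a core site of nuclear receptors, was in 18.9%, 19.3% and 18.3%, TGCTGA, part of the element of MAF and NRL, in 22.4%, 22.9% and 22.9%, and the AP-1 motif TGANTCA in 8.86%, 8.59% and 9.05%. In unmasked bases alone, each motif other than TAATCC was lower in members than in counterparts. Examples are CAGATG (18.9% against 21.8%), AGGTCA (14.9% against 16.2%) and TGANTCA (7.25% against 7.39%). Within GC contents of 35 to below 42%, 42 to below 46% and 46 to below 55%, CCGCCC was in 1.51%, 2.83% and 5.86% of members. In counterparts it was in 2.08%, 3.31% and 6.03%. In the same bins CACGTG was in 3.28%, 4.82% and 6.05% of members and 3.87%, 4.87% and 6.05% of counterparts. TAATCC, with masked bases included, was in 18.5%, 19.1% and 17.4% of members and 16.2%, 16.9% and 14.0% of counterparts. A match is only a run of letters and says nothing of binding.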

How the data were processed

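WGBS and bACE-seq were performed by the authors on matched DNA of P21 Cre- and Tet tcKO retinas (3 libraries per group and assay). Per the methods and processing notes, reads were trimmed with Trim Galore 0.4.4 and aligned to mm10 with Bismark 0.18.2 and Bowtie2, CpG calls were extracted with MethylDackel 0.6.1, and differential regions were called with DSS 2.48.0 with smoothing (p below 0.01, at least 3 CpGs and 50 bp). The smoothed estimate shares signal between neighbouring CpGs, so short regions are not independent of their surroundings. The deposited lists give, per region, the number of CpGs, the length and the mean methylation fraction of each group, printed here as percent. The order of the groups was read from the names of the lists, Cre- before knockout. Further columns hold the authors' own difference and area statistic and were not used. No column of per-library values was in the lists, so depth and replicate spread were not analysed here.

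Members were chosen on these means and on overlap of at least 1 bp, computed with Python 3.11.15, numpy 2.4.6, pandas 2.3.3 and scipy 1.17.1. Overlaps and distances were tested on simulated intervals. Midpoints were assigned to promoters (within 2 kb of a start site), gene bodies or intergenic DNA from the GENCODE annotation of 30233 autosomal genes, and gene lists were counted over gene bodies with 5 kb on both sides. Masked bases, GC content and sequences came from the RefSeq GRCm38 assembly. Every autosomal region started and ended on a reference CpG (100%). The genes and regions named are the 10 coding genes with the most members, the 5 members with the largest fall, the most CpGs per 100 bp, the most CpGs, and the most CpGs within 2 kb of a coding start site, the 3 members farthest from a WGBS region, up to 3 genes per list by members, the 3 leading windows of 1 Mb, and the 5 highest and 5 lowest member shares among genes with at least 20 eligible regions. Genes named beyond this rule (rod genes without a member, single-region cone genes, Müller glia genes set beside Apoe, Tet1, Tet2) were added after their values were seen, as were the splits of gene lists by length, CpG number and leading gene, the WGBS cover and the motif counts in unmasked bases. The members and lists were chosen with earlier results of these data known. No test was run, because the lists hold no value per sample. Some genes and regions that meet the naming rule are not reported here.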

Additional observations from a re-analysis of the deposited data

How the results depend on the processing

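No paired analysis was possible because the lists hold group means without values per library, and leaving out a library was not possible either. Absence from the WGBS list means that no region was called there, and WGBS values at the members were not analysed here. Read depth is not part of these lists and was not used here. Of 79 alternative values for 6 results, 18 stayed within 1.5 times the count or inside the 95% interval of the reported value, and 61 moved; with this many regions the intervals are narrow. No alternative was left out.

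The number of members, 21736 as reported, was 49935 with at least 5 CpGs and 5751 with at least 20, 59064 and 6602 with a Cre- level from 15% or from 25%, and 11377 when no WGBS region was allowed within 2000 bp. It was 36603 when only WGBS regions with at least 10 CpGs counted, 40062 when only those whose means differ by at least 20 points counted, and 46160 when a WGBS region had to cover at least 50% of the bACE-seq region. In the same order, members as percent of eligible regions were 54.1%, 24.2%, 47.6%, 34.6%, 21.0%, 67.5%, 73.9% and 85.1%. They were 46.1% below 2000 bp, 40.6% with the kept share below 30%, 45.1% with WGBS differences of at least 10 points and 34.9% with none within 500 bp.

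The gene body share was 67.5% and 74.5% with at least 5 and 20 CpGs, 64.8% and 78.0% with Cre- levels from 15% and 25%, 68.4% below 2000 bp, 70.3% with WGBS differences of at least 20 points, 71.9% with no WGBS region within 2000 bp, 75.1% and 62.7% with promoter windows of 1 and 5 kb, and 74.8% by base pairs. The promoter share was 7.32% with at least 5 CpGs, 9.50% below 2000 bp, 7.63% from 25%, 9.25% with differences of at least 20 points, 8.00% with none within 2000 bp, 2.96% and 19.3% with the windows of 1 and 5 kb, and 7.41% by base pairs.

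The share with a WGBS region within 1 kb was 23.3% and 31.7% with at least 5 and 20 CpGs, 24.7% and 29.6% from 15% and 25%, 26.4% with the kept share below 30%, 11.7% both with WGBS regions of at least 10 CpGs and with differences of at least 20 points, 24.5% with differences of at least 10 points, 65.7% with cover of at least 50%, 16.4% with none within 500 bp and, by construction, 0 with none within 2000 bp. Within 5 kb it was 75.9%. The median share of 5hmC kept stayed between 22.8% and 24.3%. It was 23.2% and 24.2% with at least 5 and 20 CpGs, 23.9% below 2000 bp, 23.5% from 15%, 22.8% with the kept share below 30%, 24.0%, 23.9% and 24.3% under the WGBS limits of 10 CpGs, 10 points and 20 points, 24.3% with cover of at least 50%, and 23.5% and 23.1% with none within 500 and 2000 bp.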
